A study of Sorghum bicolor with 8 samples.

Results

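The phytochromes PHYA, PHYB and PHYC are 3 genes of the 34129 listed in a transcriptome of green prop roots, which grow in the air from the base of the stem, from the Sorghum bicolor cultivar BRS330. They were taken by their gene identifiers, Sobic.001G111500 for PHYA, Sobic.001G394400 for PHYB and Sobic.001G087100 for PHYC, and all 3 were found in the table. RNA sequencing libraries numbered 4 from air of 800 µmol CO2 per mol, the elevated group, and 4 from air of 400 µmol per mol, the ambient group. In both groups the daily water supply was 1.5 L until 60 days after planting and 0.45 L, a 70% cut, over the next 30 days, so water deficit was common to all 8 libraries. The comparison therefore asks what elevated CO2 changed in roots that were short of water.

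Phytochromes are photoreceptors that carry a bilin chromophore and switch between a form that absorbs red light and a form that absorbs far-red light. The far-red absorbing form enters the nucleus and acts on transcription factors and on the degradation of light-signalling proteins. In flowering plants PHYA is the light-labile receptor for far-red and very low light, and its transcript is known to accumulate in darkness. PHYB is the light-stable receptor for red light and for shade. PHYC acts with PHYB, with which it forms heterodimers in grasses such as rice. In sorghum PHYB corresponds to the maturity locus Ma3 and PHYC to Ma5, which hold back flowering under long days.

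PHYA was by far the most abundant phytochrome transcript in these roots, and its value under elevated CO2 was 54.7% of the ambient one, but the authors' test did not call this difference. PHYB and PHYC were listed at levels far below that of PHYA and close between the groups. By level PHYC was gene number 4570 in elevated CO2 and 5280 in ambient CO2, and PHYB number 8922 and 9771. The authors deposited 1 FPKM value per gene and group (fragments scaled to library size and transcript length) for the 4 libraries together, so no spread between libraries can be given with these levels. A gene was called where the authors had tested it and their deposited q-value was under 0.05. By that rule 0 of the 3 phytochromes were called in the Cuffdiff comparison, against 11.5% of the 16280 tested genes. At q under 0.01 the count could then only be 0 again, against 7.12% of tested genes. At an unadjusted p under 0.05 there was 1 phytochrome, PHYA, against 20.6% of tested genes. None of the 3 is in the authors' lists of 394 higher and 1471 lower genes. The labels do not say whether each library is a different plant, so these p-values may measure technical spread.

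**Figure D1:**
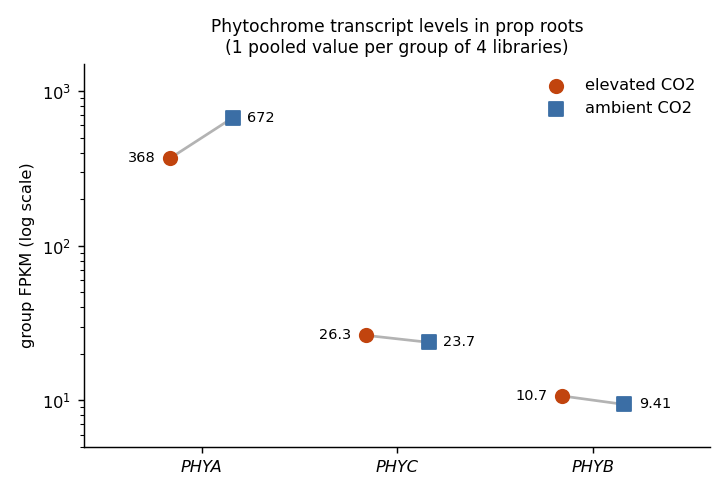
Group FPKM of PHYA, PHYC and PHYB on a log scale, with circles for elevated CO2 and squares for ambient CO2, each 1 pooled value of 4 libraries and therefore without error bars. PHYA stands above the other phytochromes in both groups (368 FPKM in elevated and 672 FPKM in ambient CO2), and the pairs of PHYC and PHYB points lie close together.

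PHYA was listed at 368 FPKM in elevated CO2 and at 672 FPKM in ambient CO2. This is a log2 fold change of -0.87 in the authors' deposited table (p = 0.031, q = 0.172). By level it was gene number 174 of the 34129 in elevated CO2 and number 88 in ambient CO2. PHYA, the receptor best known from dark-grown seedlings, thus ranked among the most abundant messages of a tissue described as green. The labels give neither the hour nor the light at harvest, and their part in its level was not tested. In a whole root sample, fewer cells that express a gene and less of its RNA per cell cannot be told apart.

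PHYC, the partner of PHYB, was listed at 26.3 FPKM in elevated CO2 and at 23.7 FPKM in ambient CO2. Its log2 fold change was 0.15 in the authors' deposited table (p = 0.521, q = 0.871). PHYB, the main red-light receptor, was listed at 10.7 FPKM in elevated CO2 and at 9.41 FPKM in ambient CO2, a log2 fold change of 0.18 in the authors' deposited table (p = 0.418, q = 0.813). Neither maturity gene passed, and this does not show that their levels were equal, since no interval for the difference can be computed from pooled values.

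The order of the levels was PHYA, PHYC, PHYB in both groups. FPKM is scaled to transcript length, so levels can be set side by side between genes. PHYA had 14.0 times the FPKM of PHYC in elevated CO2 and 28.3 times in ambient CO2. Against PHYB the ratio was 34.4 in elevated CO2 and 71.4 in ambient CO2. PHYC stood at 2.46 times the PHYB level in elevated CO2 and at 2.52 times in ambient CO2. The PHYC to PHYB transcript ratio was thus close between the group values, while the log2 fold change of PHYA was apart from both, by -1.02 from that of PHYC and -1.05 from that of PHYB. These ratios do not depend on how the groups were scaled, but the difference between members could not be tested without values per library. Which neighbours in the order differ beyond their spread is unknown for the same reason.

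Summed over the 3 genes, phytochrome transcripts came to 405 FPKM in elevated CO2 and 705 FPKM in ambient CO2. PHYA made up 90.9% of that sum in elevated CO2 and 95.3% in ambient CO2. PHYC made up 6.50% in elevated CO2 and 3.36% in ambient CO2, and PHYB 2.64% in elevated CO2 and 1.33% in ambient CO2. The shares of PHYC and PHYB were larger in elevated CO2 although their own levels differed by only 2.59 and 1.28 FPKM, beside -304 FPKM for PHYA (elevated minus ambient).

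The PHYA ratio was large among tested genes and the other ratios were not. Of the 16280 tested genes, 86.7% had a smaller absolute log2 fold change than PHYA, 40.2% a smaller one than PHYB and 33.6% a smaller one than PHYC. A log2 fold change below that of PHYA was listed for 10.3% of tested genes. The median over all tested genes was -0.03. Among the 334 tested genes of at least 300 FPKM in the higher group, where PHYA lies, the median was lower, at -0.22. It was 0.006 at 5 to 20 FPKM, the range of PHYB, and -0.06 at 20 to 100 FPKM, that of PHYC. Summed FPKM over all genes was 579715 in elevated and 652743 in ambient CO2. Making those sums equal would add 0.17 to every log2 fold change, which puts PHYA at -0.70, PHYB at 0.35 and PHYC at 0.32.

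**Figure D2:**
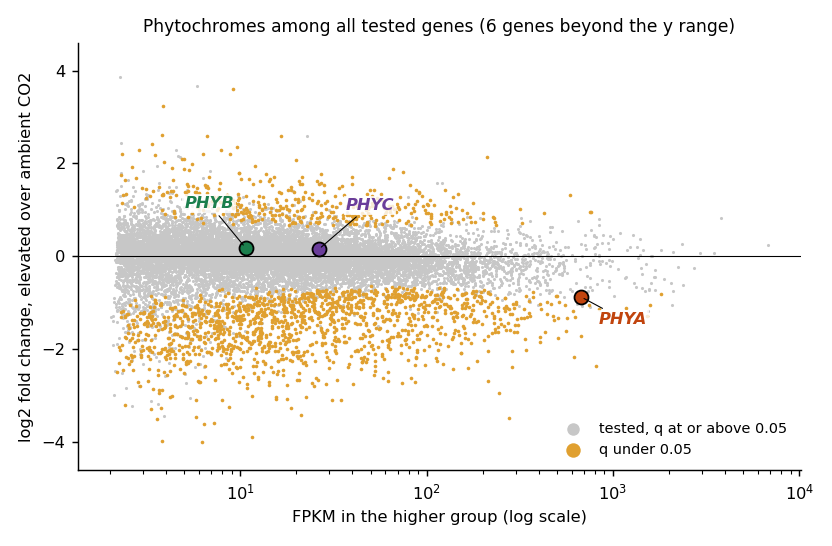
Log2 fold change of elevated over ambient CO2 against FPKM in the higher group (log scale) for tested genes, with called genes in orange and the 3 phytochromes as large points. PHYA (-0.87) lies at the lower right, among abundant genes, and PHYB (0.18) and PHYC (0.15) lie in the grey band around 0, while 6 tested genes outside the vertical range and 3 with a group listed at 0 are not drawn.

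How often a ratio like that of PHYA was called varied with the level of the gene. Among the other tested genes within 0.1 of its log2 fold change, 218 of 424 were called (51.4%). At 20 to 100 FPKM in the higher group 122 of 146 such genes were called (83.6%), and at 100 to 300 FPKM 40 of 51 (78.4%). At 300 FPKM and above, the class of PHYA, 6 of 11 were called. At 5 to 20 FPKM 44 of 133 were called (33.1%), and below 5 FPKM 6 of 83 (7.23%). Of all 334 tested genes of at least 300 FPKM, 15.6% were called, and 13.8% were called with a lower value in elevated CO2. For PHYB and PHYC 0 of 2881 and 0 of 3185 genes were called within 0.1 of their log2 fold change, at any level. Even at 300 FPKM and above, the smallest absolute log2 fold change of a called gene was 0.72. These counts of 0 thus go with the small size of the ratios and say nothing particular to PHYB or PHYC.

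Among abundant genes PHYA had a high p for its ratio. In the class of at least 300 FPKM, 52 other genes had a log2 fold change as low as that of PHYA or lower, and 41 of them were called. The p-values of the remaining 11 ran from 0.0058 to 0.0298 in the authors' deposited table. None of the 52 had a p above the 0.031 of PHYA. They were chosen to have a change at least as large as that of PHYA, so this ranking is partly set by the choice. Among the 11 other genes of this class within 0.1 of its log2 fold change, on either side, the highest deposited p was 0.0298. The class boundaries and the width of 0.1 were chosen after the values were seen.

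**Figure D3:**
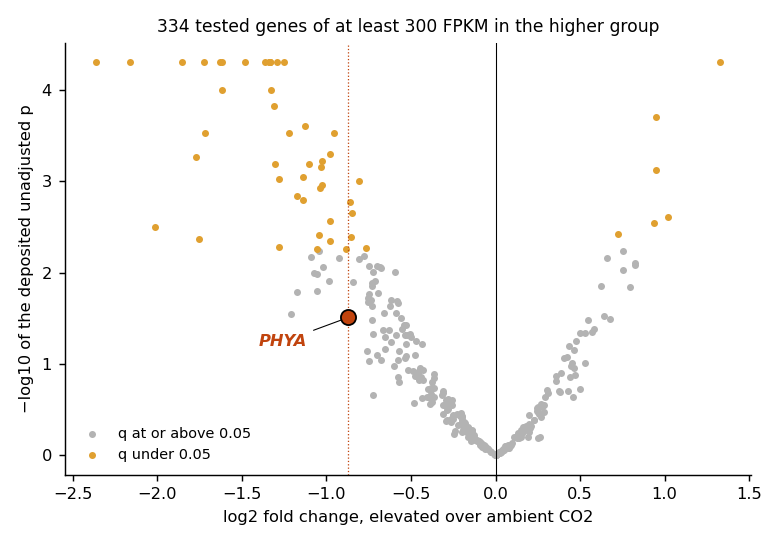
Negative log10 of the deposited unadjusted p against the log2 fold change of elevated over ambient CO2 for the 334 tested genes of at least 300 FPKM, with called genes in orange. PHYA (log2 fold change -0.87) is the large point, the dotted line marks its fold change, and no gene on or to the left of that line lies below it.

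All 3 genes lie on chromosome 1. PHYC was listed at 6748035 to 6753421 and PHYA at 8708286 to 8721152, with 1.95 Mb between them. In locus order 262 annotated genes come between them, counting the gene that shares the PHYA locus. PHYB was listed at 68034102 to 68043358, 59.3 Mb beyond PHYA. These loci are printed as deposited with the annotation suffix 3.2, and neither labels nor headers name the genome build. The locus spans were 12866 bp for PHYA, 9256 bp for PHYB and 5386 bp for PHYC. The deposited PHYA locus is common to a second gene, Sobic.001G111432, which was listed at 0 FPKM in both groups and was not tested. Its span is therefore that of the overlapping pair, and neither labels nor headers say how reads were divided between them. PHYB and PHYC have loci of their own.

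The genes around the phytochromes were described by the 5 annotated genes on each side. For PHYA these include the untested gene that shares its locus. Of these 30 neighbours 19 were tested. There were 3 called lower in elevated CO2 (15.8% of those tested, against 9.04% of all tested genes) and 0 called higher (against 2.42%). Tested neighbours that were not called lay on both sides of 0. The median log2 fold change of the 19 was -0.13, beside -0.03 over all tested genes. Near PHYA 2 of 7 tested neighbours were called lower. The nearer of these, Sobic.001G111366 at 8691542 to 8693083, was listed at 43.0 FPKM in elevated and 79.0 FPKM in ambient CO2, a log2 fold change of -0.88 (q = 0.00807 in the authors' deposited table). This ratio is close to that of PHYA, at a far lower level, and it was called. The other called neighbour of PHYA lies at 8627538 to 8635411 and was listed at 86.5 FPKM in elevated and 177 FPKM in ambient CO2 (log2 fold change -1.04, q = 0.00502 in the authors' deposited table).

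Beside PHYC 1 of 6 tested neighbours was called, with a lower value in elevated CO2. It lies 2 genes away at 6739770 to 6742375, with 8.91 FPKM in elevated and 16.8 FPKM in ambient CO2 (log2 fold change -0.91, q = 0.0104 in the authors' deposited table). Around PHYB 0 of 6 tested neighbours passed. The counts are small, and they were read as a description of the surroundings without a test. The files pair these neighbours with no gene names.

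**Figure D4:**
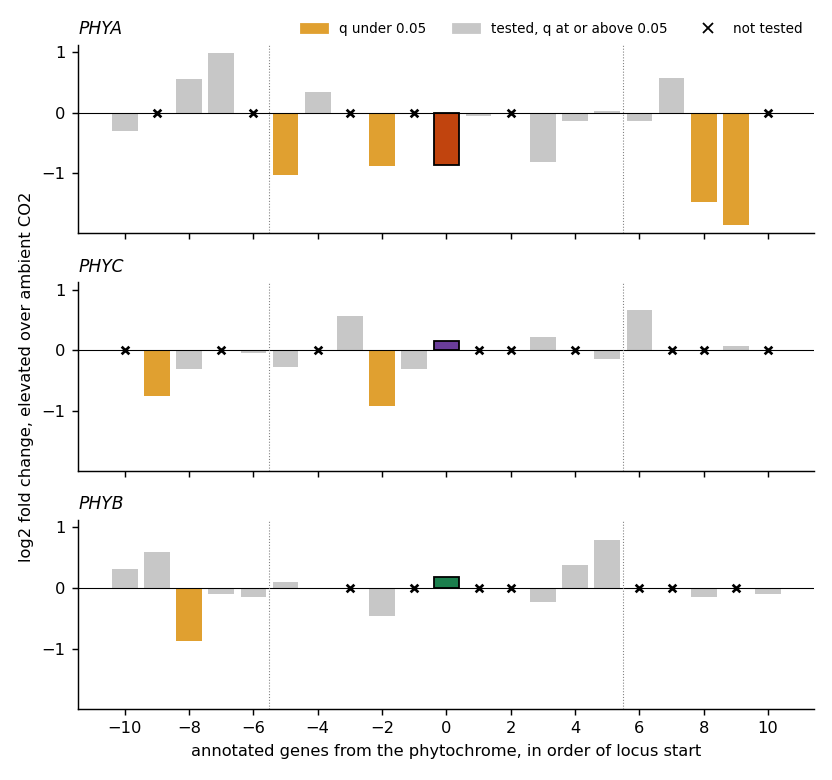
Log2 fold change of elevated over ambient CO2 for the 10 annotated genes on each side of PHYA, PHYC and PHYB in order of locus start, with the phytochrome at 0, called genes in orange, other tested genes in grey and untested genes as crosses. Dotted lines enclose the 5 genes on each side, where 2 genes were called near PHYA, 1 near PHYC and 0 near PHYB, all with a lower value in elevated CO2.

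The genes most like each phytochrome were taken as the 2 tested genes nearest to it in the plane of log2 FPKM in elevated and in ambient CO2. This likeness rests on 2 pooled values per gene. Nearest to PHYA was Sobic.006G099700 (chromosome 6), with 363 FPKM in elevated and 746 FPKM in ambient CO2, at a distance of 0.15 log2 units. It was called lower in elevated CO2 (log2 fold change -1.04, q = 0.015 in the authors' deposited table), whereas PHYA was not called. The next was Sobic.001G125800 (chromosome 1), with 360 FPKM in elevated and 603 FPKM in ambient CO2 at a distance of 0.16, and it was not called (q = 0.366). Few genes share the range of PHYA, and PHYB and PHYC had much closer matches, at distances of 0.0046 to 0.0057 log2 units. For PHYB these were Sobic.005G075100 and Sobic.005G001100, and for PHYC Sobic.004G037700 and Sobic.009G260700, none of them called.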

How the data were processed

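Libraries were made with a stranded Illumina mRNA kit from 100 mg of ground prop root each, per the labels' protocols. Cuffdiff, Cufflinks 2.2.1, HISAT2 and Trimmomatic 0.36 were used, with no settings stated, per the submitters' processing notes. The deposited table, in Cuffdiff layout, holds 1 FPKM value per gene and group, and the authors' log2 ratio of elevated over ambient CO2, test statistic (a score), p-value and q-value. Of 34129 genes, 16280 were tested by the authors. No column holds a single library, so no SD, interval or test of another design was computed, and read depth is unknown.

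Deposited log2 ratios differed from ratios of the FPKM by at most 1.27e-05, and q from a Benjamini-Hochberg adjustment by at most 5.25e-07. Ranks, ratios, neighbours and likeness were computed in Python 3.11.15 with pandas 2.3.3, and the adjustment and likeness steps were tested on simulated data. Named were the phytochromes, their called neighbours within 5 genes (called ones beyond the first are given by position) and the 2 most alike genes each. The members and lists were chosen with earlier results of these data known. A planned list of light-signalling and photoperiod genes was to be used only where the annotation at hand covered its members. It was not run, and tissue markers were not checked, because 0 of the 34129 identifiers matched the 32945 RefSeq genes at hand (Sorghum_bicolor_NCBIv3). The 13 identifiers written down for that list were not looked up without annotation.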

Additional observations from a re-analysis of the deposited data

How the results depend on the processing

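With a pseudocount of 1 or 0.1 FPKM, centring on the median of tested genes, sums of FPKM made equal, q under 0.01, and q recomputed over genes of at least 1 FPKM, the log2 fold changes kept their sign and none of the phytochromes was called. They ranged from -0.87 to -0.70 for PHYA, from 0.17 to 0.35 for PHYB and from 0.14 to 0.32 for PHYC. The ratios with a pseudocount and the rescaled ratios have no test of their own. A gene that does not pass q under 0.05 cannot pass q under 0.01. The recomputed q removed no gene, since every tested gene had at least 1 FPKM in its higher group. None of these settings could therefore have called a phytochrome. Within 10 genes on each side of the phytochromes 7 of 38 tested neighbours were called, all lower (18.4%, against 9.04% of all tested genes). Of these 7, 4 lay near PHYA. At q under 0.01, 2 of the 3 called neighbours within 5 genes passed. The 6 most alike genes were the same with a pseudocount of 1 FPKM. No paired analysis was possible because each group has only its pooled value; no library could be left out, and the alternatives for the light-signalling list were not run. Without counts, limits set by depth were not assessed.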

Other observations

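The deposited test statistic of PHYA was -0.77, small for its log2 fold change. The ratio of the log2 fold change to the statistic was 1.13 for PHYA, 0.66 for PHYB and 0.66 for PHYC, and 86.8% of tested genes had a lower ratio than PHYA. Among the 334 tested genes of at least 300 FPKM the median ratio was 0.82, and 93.4% lay below PHYA. A statistic of -0.77 read as a standard normal deviate would give a two-sided p of 0.441, whereas the authors' deposited p for PHYA is 0.031. The deposited p was below the normal p in 16267 of the 16277 tested genes that have a statistic, so the statistic cannot be read as a standard normal deviate in this table. Neither labels nor headers say how the authors' p-values were derived.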
